A study of Mus musculus with 3 samples.

Results

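The 10 listed genes of MHC class I antigen processing were followed in mouse CD8 T cells cultured with cholesterol. They were chosen by symbol: Psmb8, Psmb9, Psmb10, Psme1, Psme2, Tap1, Tap2, Tapbp, B2m and Nlrc5. Of these 10, 9 had a named probe set among 19505 named genes, each with 1 probe set. Nlrc5, the transactivator of class I genes, had no named probe set and was not measured here. Per the labels, CD8 cells were stimulated by way of CD3 and CD28 under a Tc1 cytokine condition, which drives them toward interferon-gamma-making cytotoxic cells. The control culture had no added cholesterol, and the others received 0.5 or 0.75 µg/ml. The labels used here give no mouse strain, age, carrier or duration, so cholesterol and its carrier cannot be told apart.

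Each of the 3 conditions had 1 array. No difference below therefore has a replicate check or a p-value, and precision is limited by having so few arrays. Median intensities were 32.5, 32.4 and 33.0 in the order control, 0.5 and 0.75 µg/ml, which is the order used for all values below. The 95th percentile of the negative-control probe sets was 102 or lower on each array and is taken as the background level. The T cell gene Cd3e was at 4364, 4650.1 and 4594, and all 5 measured T cell markers were above background on every array. Cd4 stayed under background, at 61.6, 39.4 and 35.7. RNA came from whole cultures, so fewer expressing cells and less RNA per cell cannot be told apart.

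MHC class I molecules display peptides from inside a cell to CD8 T cells. The proteasome cuts cytosolic proteins. In lymphocytes and under interferon-gamma, its catalytic subunits are replaced by those encoded by Psmb8, Psmb9 and Psmb10, which form the immunoproteasome. The activator PA28, made from Psme1 and Psme2, opens the proteasome. The TAP transporter, a dimer of the Tap1 and Tap2 products, carries peptides into the endoplasmic reticulum. There tapasin (Tapbp) bridges TAP to the class I heavy chain, which pairs with beta-2 microglobulin (B2m). Interferon-gamma acts in part through IRF1, while NLRC5 acts with the RFX, NF-Y and CREB factors on the S, X and Y elements of promoters.

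Psmb9 and Tap1 lie next to each other in opposite directions, so their start sites face outward from 1 shared stretch of 225 bases. That stretch is shown because both genes differed more from the control at 0.75 µg/ml than B2m and Psmb8, which are shown beside it. All 9 measured genes were lower at both doses, and whether motifs relate to the size of a difference was not tested. Sequences are from RefSeq on GRCm38.p6. Psmb9-Tap1 is chr17:34187331-34187555, plus strand, from the base before the Psmb9 start to the base before the Tap1 start. B2m is chr2:122147537-122147686 and Psmb8 is chr17:34198045-34198194, both plus strand, the 150 bases before the start. Capitals mark the motifs found.
Psmb9-Tap1: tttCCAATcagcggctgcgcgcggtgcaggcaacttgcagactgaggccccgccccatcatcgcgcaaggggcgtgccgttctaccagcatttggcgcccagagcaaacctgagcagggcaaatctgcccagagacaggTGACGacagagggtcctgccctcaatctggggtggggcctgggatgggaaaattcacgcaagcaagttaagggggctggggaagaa
B2m: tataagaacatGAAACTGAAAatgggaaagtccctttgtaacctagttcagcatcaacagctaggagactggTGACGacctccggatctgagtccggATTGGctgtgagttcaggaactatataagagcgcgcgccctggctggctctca
Psmb8: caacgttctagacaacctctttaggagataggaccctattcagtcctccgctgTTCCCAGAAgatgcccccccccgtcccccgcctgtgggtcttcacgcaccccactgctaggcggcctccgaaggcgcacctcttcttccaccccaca

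The motifs were searched on both strands in the 250 bases before each start. They were an ISRE-like motif (GAAA, any 2 bases, then GAAA), bound by interferon-regulated factors, a GAS-like TTCNNNGAA, named for interferon-gamma-activated sites, CCAAT, bound by NF-Y, and TGACG, which lies in the X2 element. Of the 10 listed genes, 8 had a promoter entry. The stretch between Psmb9 and Tap1 held 1 CCAAT and 1 TGACG, the latter 82 to 86 bases before the Tap1 start. B2m held an ISRE-like match 130 to 139 bases before its start, along with 1 TGACG and 1 CCAAT, which reads ATTGG on the printed strand. Psmb8 held a GAS-like match, Tapbp held 2 CCAAT, and Psme2 held TGACG. Psmb10 and Psme1 held none of the motifs in this window. Over the 8 genes, 1 held the ISRE-like motif, 1 the GAS-like motif, 4 CCAAT and 4 TGACG, with Psmb9 and Tap1 sharing theirs. Among 32851 promoter entries of the same length, 2.98% held the ISRE-like motif, 7.02% the GAS-like motif, 33.8% CCAAT, 17.8% TGACG and 6.12% both of the latter. These matches describe letters and are not binding sites.

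All 9 measured genes were lower at both doses than in the control, by small amounts at 0.5 µg/ml and, in all but Psme1, by more at 0.75 µg/ml. The median log2 difference was -0.12 at 0.5 µg/ml and -0.36 at 0.75 µg/ml. Over all named genes the medians were 0.00 and 0.01. All 9 genes had a mean intensity above 500, and over the 2506 genes at or above that level the medians were 0.02 and 0.04. At 0.5 µg/ml, 46.0% of all named genes and 39.1% of those of mean intensity 500 or more were lower than in the control. At 0.75 µg/ml these shares were 46.1% and 41.9%. The doses share 1 control array, so their differences from it are not independent.

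In 8 of the 9 genes the intensity was highest in the control, lower at 0.5 µg/ml and lowest at 0.75 µg/ml. That order was seen in 16.7% of all named genes and in 18.6% of those of mean intensity 500 or more. Psme1 was the exception.

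**Figure D1:**
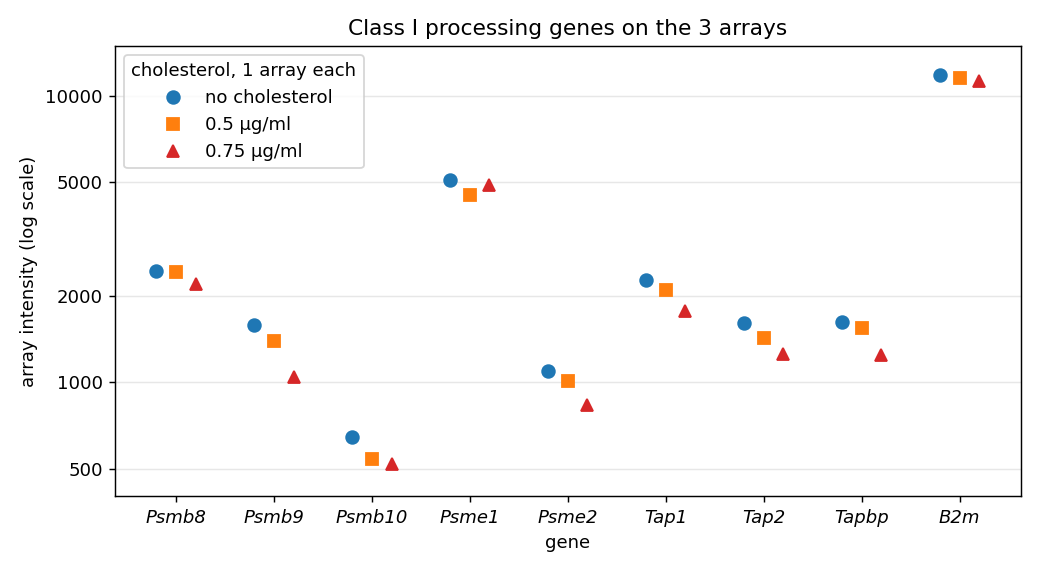
Array intensity on a log scale for the 9 measured class I processing genes, with 1 point per array and no error bars because each condition had 1 array. The point at 0.75 µg/ml is the lowest for every gene except Psme1.

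Among the immunoproteasome subunits, Psmb9 differed most. Psmb9, whose product (LMP2) replaces that of Psmb6, was at 1587, 1390 and 1047. The control was thus the highest and 0.75 µg/ml the lowest, with log2 differences of -0.19 and -0.60. At 0.75 µg/ml Psmb9 was 1.52-fold lower than in the control, and 2.75% of the genes of mean intensity 500 or more had a lower difference.

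Psmb10, whose product (MECL-1) replaces that of Psmb7, was at 647, 539 and 518. The treated cultures lay close together, with log2 differences from the control of -0.26 and -0.32. Psmb8, whose product (LMP7) replaces that of Psmb5, was at 2455, 2424 and 2203. Its control and 0.5 µg/ml values nearly coincided, and its differences were -0.02 and -0.16.

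The constitutive counterparts did not share this direction. Psmb6 was at 813, 862 and 918, with the control lowest, and its log2 differences were 0.08 and 0.18. Psmb7 was at 1280, 1284 and 1424, and its differences were 0.00 and 0.15. The Psmb9 difference at 0.75 µg/ml was therefore 0.78 below that of Psmb6, and the Psmb10 difference was 0.48 below that of Psmb7. Psmb5 had no named probe set, so Psmb8 had no counterpart to set beside it.

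The PA28 subunits differed from each other. Psme2 was at 1095, 1010 and 834, lower at each dose, with log2 differences of -0.12 and -0.39. Psme1 was at 5082, 4519 and 4908, so that 0.5 µg/ml was the lowest and 0.75 µg/ml lay near the control, with differences of -0.17 and -0.05. Their products assemble into 1 ring, yet their differences at 0.75 µg/ml were 0.34 apart. Psme3, which encodes the separate nuclear activator PA28-gamma, was at 1673, 1820 and 2057, higher at each dose, with differences of 0.12 and 0.30.

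The peptide transporter genes and tapasin had near-equal differences at 0.75 µg/ml. Tap1 was at 2288, 2109 and 1777, with log2 differences of -0.12 and -0.36. Tap2 was at 1618, 1424 and 1261, with differences of -0.18 and -0.36. The TAP genes differed from each other by 0.07 or less on the log2 scale in each comparison. Tapbp was at 1630, 1544 and 1246, with differences of -0.08 and -0.39. For these 3 genes, between 6.30% and 7.42% of the genes of mean intensity 500 or more had a lower difference at 0.75 µg/ml.

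B2m was at 11837, 11575 and 11272, with log2 differences of -0.03 and -0.07. It held the highest value of all transcript probe sets on every array. How far intensities near the top of the scale are compressed was not tested. The 20 named genes brightest in the control ranged from -0.26 to 0.10 at 0.75 µg/ml.

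None of the 9 genes was at least 1.5-fold lower at 0.5 µg/ml, against 2.05% of all named genes and 0.0798% of those of mean intensity 500 or more. At 0.75 µg/ml 1 of 9 was, Psmb9, against 3.73% and 2.95%. None was at least 2-fold lower at either dose, against 0.149% of all named genes at 0.5 and 1.07% at 0.75 µg/ml.

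**Figure D2:**
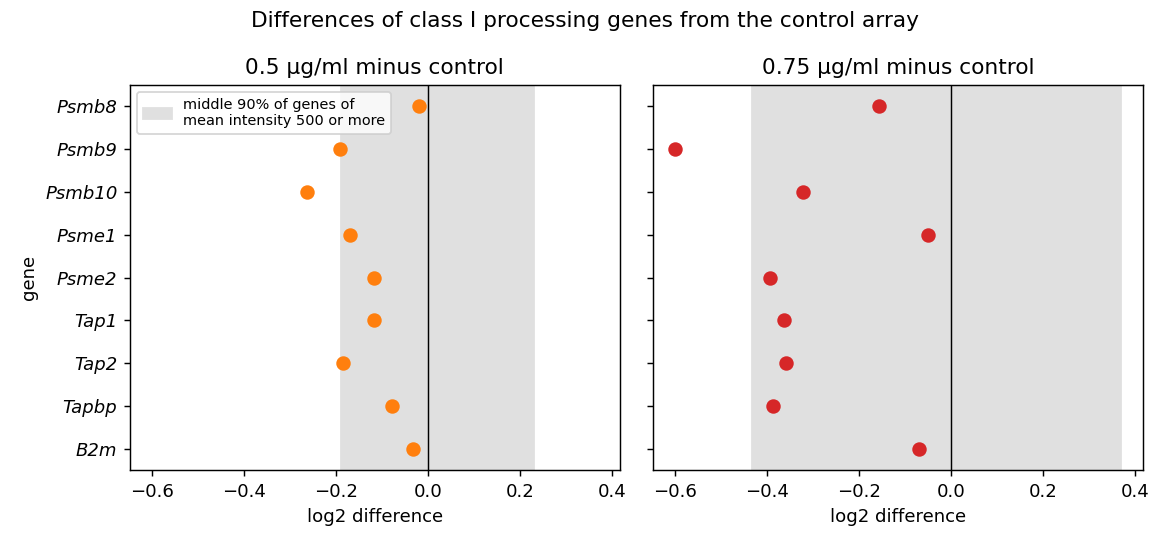
Log2 differences of each treated array from the control for the 9 genes, with the middle 90% of genes of mean intensity 500 or more in grey (-0.19 to 0.23 at 0.5 µg/ml and -0.43 to 0.37 at 0.75 µg/ml). All points lie left of 0, and Psmb9 is the only one left of the grey band at 0.75 µg/ml.

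With 1 array per condition, the spread of other features gives the scale of these differences. At 0.75 µg/ml, 1 of the 9 genes, Psmb9, lay below the 5th percentile of genes of mean intensity 500 or more, which was -0.43. Positive-control probe sets at or above the same level, 459 in number, had a 5th percentile of -0.30. Their median was 0.08, against 0.04 for the genes at that level. Below -0.30 lay 6 of the 9 genes, all but B2m, Psmb8 and Psme1. Psmb10, at -0.32, was the closest of the 6 to that value. A lower difference than that of Psmb10 was held by 9.10% of genes of mean intensity 500 or more and by 12.4% of all named genes. At 0.5 µg/ml Psmb9 and Psmb10 lay below the genes' 5th percentile of -0.19, and Psmb10 alone below that of the positive controls, -0.24. Psmb9 was all but level with the genes' 5th percentile, at -0.1909 against -0.1902. For Psmb10 at 0.5 µg/ml, 2.23% of genes of mean intensity 500 or more and 12.3% of all named genes had a lower difference.

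Between the doses, 8 of the 9 genes had their lower value at 0.75 µg/ml, with a median log2 difference of -0.18. Over all named genes 47.6% were lower, as were 48.6% of those of mean intensity 500 or more. Psmb9 differed most, by -0.41, followed by Tapbp at -0.31 and Psme2 at -0.28, while Psme1 was higher by 0.12. None of the 9 was at least 1.5-fold lower between the doses, against 3.02% of all named genes and 2.55% at the higher level.

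Class I heavy chains, which B2m pairs with, were lower at 0.75 µg/ml in 14 of 15 measured genes of 19 listed, against 46.1% of all named genes. Of the 13 above background on at least 1 array, all 13 were lower. Their median log2 difference was -0.07 at 0.5 and -0.45 at 0.75 µg/ml, and 4 were at least 1.5-fold lower at 0.75 µg/ml, against 3.73% of all named genes. With dim values raised to background 3 of these were, H2-T23, H2-T22 and H2-T10. The differences were larger for several non-classical genes than for the classical ones. H2-T23, which encodes the Qa-1 molecule read by CD94-NKG2 receptors, was at 1954, 1531 and 1120, lower at each dose, with differences of -0.35 and -0.80. H2-T22 was at 526, 462 and 300.0 and H2-T10 at 1771, 1551 and 1029. H2-M3, which presents formylated peptides, was at 345, 292 and 253.

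The classical gene H2-K1 was at 4019, 4444 and 3556, highest at 0.5 µg/ml, and H2-D1 at 1665, 1795 and 1552. Their differences at 0.75 µg/ml were -0.18 and -0.10. H2-T24 was at 147, 141 and 103. H2-Q10 was at 122, 113 and 64.1, under background at 0.75 µg/ml, which makes it at least 1.20-fold lower. Class I genes are near-identical copies in part, H2-T10 and H2-T22 among them, so probe sets may share signal and single values are uncertain.

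Genes that fold or edit class I molecules in the endoplasmic reticulum went both ways, 3 above and 3 below the control at 0.75 µg/ml among 6 measured. Of all named genes, 46.1% were lower at that dose. Calreticulin (Calr), a chaperone of the peptide-loading complex, was at 4346, 4436 and 5470.4. Its partner Pdia3, an oxidoreductase, was at 2200.4, 2235 and 2598, and calnexin (Canx) was at 1335, 1384 and 1594. Each of the 3 was highest at 0.75 µg/ml, at 0.24 to 0.33 above the control. The peptide editor gene Tapbpl, a tapasin relative, was at 563, 523 and 485, lower by 0.22 on the log2 scale at 0.75 µg/ml. The peptide-trimming protease gene Erap1 was at 742, 633 and 730 and the glycoprotein sensor gene Uggt1 at 799, 701 and 770, both lowest at 0.5 µg/ml.

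Of the constitutive proteasome core, 13 of 14 listed genes were measured, and 10 were above the control at 0.75 µg/ml, with a median log2 difference of 0.07. Over genes of mean intensity 500 or more, 57.2% were above. Psma3, an alpha-ring subunit gene, was at 718, 821 and 969 and Psmb3 at 652, 747 and 772. Psma7 was at 762, 808 and 886, while Psmb1 was slightly lower, at 1663, 1605 and 1582. Other proteasome activators and assembly factors had a median of 0.08, with 5 above and 2 below among 8 measured, beside the same 57.2%. The activator gene Psme4 (PA200) was at 167, 213 and 204, and the proteasome inhibitor gene Psmf1 (PI31) at 1403, 1289 and 1294. Among the assembly factors Psmg2 was at 523, 654 and 600, Pomp at 675, 702 and 723, and Psmg4 at 103, 83.0 and 83.0, under background in both treated cultures.

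Cytosolic peptidases, which trim or destroy proteasome products, were above the control at 0.75 µg/ml in all 6 measured of 8 listed, with a median log2 difference of 0.19. Of genes of mean intensity 500 or more, 57.2% were above, and 46.1% of all named genes were lower. Lap3, a leucine aminopeptidase gene, was at 427, 474 and 628, and the thimet oligopeptidase gene Thop1 at 237, 243 and 316. Npepps was at 104, 108 and 126, Prep at 1218, 1348 and 1314, Blmh at 659, 722 and 714, and Tpp2 at 619, 616 and 648. None of the measured genes of the constitutive core, assembly and peptidase lists was 1.5-fold different in either direction from the control. Of all named genes, 2.05% at 0.5 µg/ml and 3.73% at 0.75 µg/ml were at least 1.5-fold lower. The share at least 1.5-fold higher was not counted. Over all named genes the 95th percentile of the log2 differences was 0.42 at 0.5 and 0.51 at 0.75 µg/ml.

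**Figure D3:**
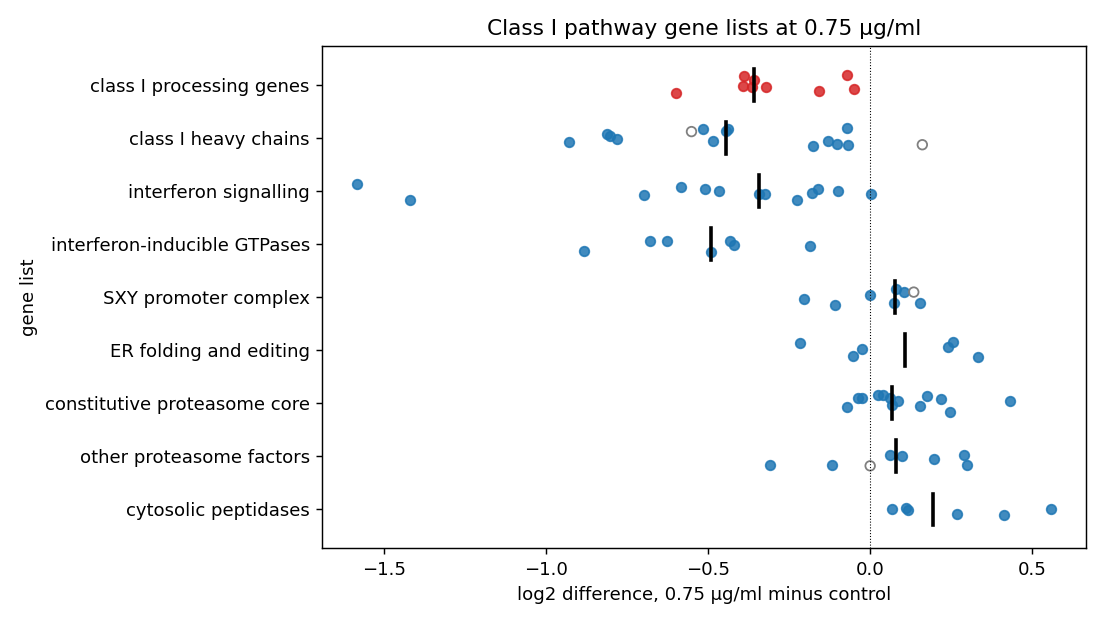
Log2 difference of the 0.75 µg/ml array from the control for the 9 class I processing genes (red) and 8 further gene lists of the pathway (blue), 1 point per gene with the list median as a black bar. Open grey points were under background on every array, and vertical scatter within a list only separates points. Heavy chains, interferon signalling genes and interferon-inducible GTPases lie mostly left of 0, and proteasome core and peptidase genes mostly right of it.

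The interferon signalling list held, beside genes that carry the signal, the ligand gene Ifng, the inhibitor gene Socs1 and the IRF1 competitor gene Irf2. Of its 14 genes 13 were measured, and 12 of these were lower at 0.75 µg/ml. The 13 had a median log2 difference of -0.34, and 3 were at least 1.5-fold lower. Over all named genes these shares were 46.1% and 3.73%. Ifngr2, the signalling chain of the interferon-gamma receptor, was at 387, 252 and 144, lower at each dose, with differences of -0.62 and -1.42. Its partner Ifngr1 was at 1394, 1509 and 978, lower at 0.75 µg/ml only. Irf1, which encodes a factor that binds class I and immunoproteasome promoters, was at 1388, 997 and 856, with differences of -0.48 and -0.70.

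Stat2, part of the complex formed under type I interferon, differed by -0.58 and -1.58, and its partner Irf9 was at 326, 281 and 218. Jak2, the kinase on the IFNGR2 chain, was at 707, 578 and 564, and Irf2, which competes with IRF1, at 529, 485 and 383. Ifng itself was at 333, 346 and 294, and Socs1 at 1633, 1462 and 1524.

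Genes of the promoter complex through which NLRC5 acts, listed with Ciita, went both ways at 0.75 µg/ml. Of the 8 measured, the 7 other than Ciita were above background on at least 1 array. At 0.5 µg/ml all 7 were above the control (median 0.04 on the log2 scale). At 0.75 µg/ml 4 of the 7 were above and 3 below, with a median of 0.07. Of all named genes, 46.0% were lower at 0.5 and 46.1% at 0.75 µg/ml. Among genes of mean intensity 500 or more, 57.2% were above at 0.75 µg/ml. Rfx5, a DNA-binding RFX subunit, was at 356, 358 and 356, near-equal on all arrays. Rfxap was at 245, 322 and 227, and Rfxank at 135, 165 and 145, both highest at 0.5 µg/ml. Nfya was at 555, 569 and 482, Nfyb at 595, 630 and 630, and Nfyc at 536, 550 and 596. Creb1 was at 309, 314 and 325. Ciita, the class II relative of NLRC5, was at 25.9, 24.1 and 28.4, under background on every array.

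Interferon-inducible GTPases of the GBP and IRG families, cell-autonomous defence genes, were below the control at 0.75 µg/ml in all 7 measured of 9 listed. Their median log2 difference was -0.49, and 3 were at least 1.5-fold lower, beside the same 46.1% and 3.73% of all named genes. Gbp2 was at 1870, 1462 and 1014, lower at each dose, and Gbp7 at 1863, 1875 and 1163, lower at 0.75 µg/ml only. Iigp1 was at 361, 287 and 234, Irgm1 at 953, 822 and 711, Irgm2 at 1183, 1030 and 877, and Gbp3 at 739, 717 and 526.

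The genes Psmb9, Tap1, Psmb8 and Tap2 are consecutive on chromosome 17, inside the class II region of the MHC. The 10 consecutive protein-coding genes that run from 3 before Psmb9 to 3 after Tap2 were all lower at 0.75 µg/ml, and 8 of 10 at 0.5 µg/ml. These compare with 46.1% and 46.0% of all named genes. The 4 from Psmb9 to Tap2 are class I processing genes already given as lower at both doses, so only the 3 on each side add to these counts. Among those, H2-Ab1 and H2-Aa were above the control at 0.5 µg/ml, and H2-Aa was under background on every array. The 3 genes before Psmb9 differed more at 0.75 µg/ml than the 4 from Psmb9 to Tap2. H2-DMa, a subunit of the class II peptide exchanger, was at 466, 306 and 181, with log2 differences of -0.61 and -1.36. H2-DMb2 and H2-DMb1, similar copies of the other subunit, differed by -1.71 and -0.91 at 0.75 µg/ml. On the other side, the class II gene H2-Ab1 was at 266, 285 and 83.4, at least 2.61-fold lower than the control at 0.75 µg/ml against the background level. H2-Ob was at 108, 89.5 and 56.9, near or under background, and H2-Aa at 79.9, 86.0 and 63.2.

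Psme1 and Psme2 lie on chromosome 14 with Emc9 between them, and Rnf31 and Irf9 follow Psme2. Rnf31, of the linear ubiquitin ligase, was at 440, 399 and 331, with differences of -0.14 and -0.41 beside -0.12 and -0.39 for Psme2. Emc9 was at 181, 195 and 169, within 0.11 of the control on the log2 scale at both doses. Irf9 differed by -0.22 and -0.58, while the next gene, Rec8, was under background. Next to Tapbp, Rgl2 differed by 0.00 and both Pfdn6 and Wdr46 by 0.28 at 0.75 µg/ml, while Daxx differed by -0.54. Slc12a4, the only measured neighbour of Psmb10 above background, differed by -0.24 and -0.06. The measured neighbours within 3 genes of B2m were under background on every array. Neighbours were taken by position and whether they are regulated together was not tested.

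**Figure D4:**
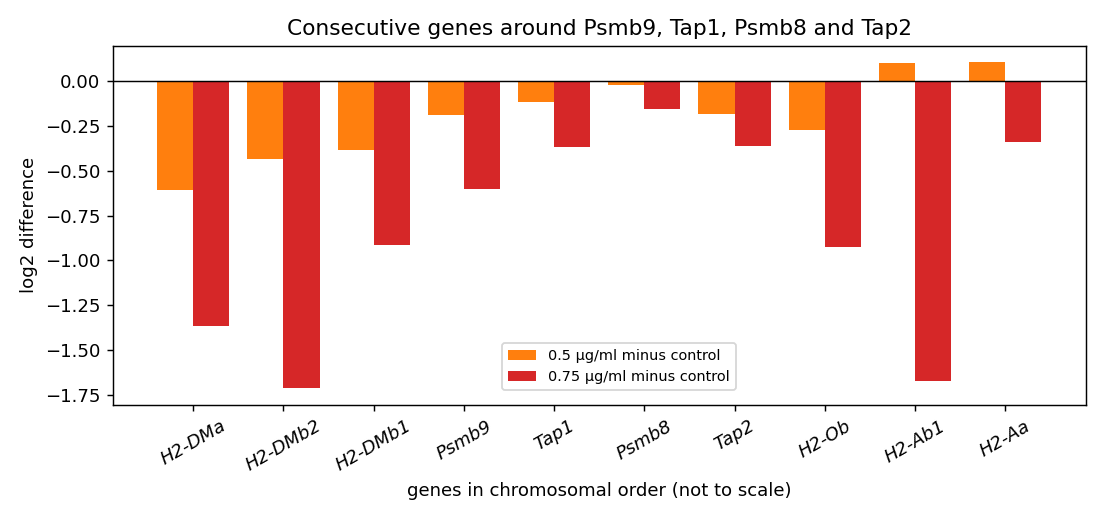
Log2 differences from the control of the 10 consecutive protein-coding genes around Psmb9, Tap1, Psmb8 and Tap2, in chromosomal order and with equal spacing. Bars start at 0, with orange for 0.5 and red for 0.75 µg/ml. Every red bar points down, and the class II genes H2-DMa, H2-DMb2 and H2-Ab1 reach below -1.

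Class II and class I processing genes are both high in antigen-presenting cells, so markers of other cells were read alongside. Of 10 markers of macrophages, dendritic cells and monocytes, 9 were measured, and 2, H2-Ab1 and H2-Eb1, were above background in the control and at 0.5 µg/ml and 0 at 0.75 µg/ml. Their summed intensity was 582, 566 and 334. The defining markers Itgax, Csf1r, Lyz2, Adgre1, Flt3 and Siglech were at 20.5 or lower on every array, far under background. Of 3 measured B cell markers, Cd79b was at 111, 100.3 and 105, and Cd79a and Ms4a1 were under background. Both NK cell markers were under background on every array.

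T cell genes themselves were not level. Cd8a was at 4225, 4164 and 3313, Cd8b1 at 2574, 2621 and 2030.0 and Cd3d at 1603, 1599 and 1269. Their log2 differences at 0.75 µg/ml, -0.35, -0.34 and -0.34, were close to the median of the 9 class I processing genes, -0.36. Cd3e and Cd3g differed by 0.07 and -0.09. The part of this in the class I result was not tested.

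The genes most like the median of the 9 were sought among 7137 named genes above background on all arrays, by Euclidean distance over the 2 log2 differences from the control. The 5 nearest were Coq8b, Klf7, Btg2, Nsa2 and Ermp1, at distances of 0.0028 to 0.012. The nearest, Coq8b, was at 198, 182 and 154. With 3 arrays, such nearness describes 2 numbers per gene.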

How the data were processed

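The deposited table gives an intensity for each probe set on each of the 3 arrays, and its range is that of a linear scale. Which software, background correction, normalization or genome build the authors used is not given in sources used here. Of 28846 probe sets, 22206 were transcript probe sets, and 19572 had 1 gene symbol in the platform annotation and 0 several. All 19572 gene identifiers were in the RefSeq gene table. Where a gene had several probe sets, as 55 did, the brightest was used, leaving 19505 genes. Log2 was taken of the values as deposited, with no further normalization. Differences are between 2 arrays, with no significance test. Counts of lower genes are given beside the same share of all named genes and, for the 9 genes at 1.5-fold, also of genes of mean intensity 500 or more. That level was set after the values were seen. Counts of genes above the control are given beside the share above among genes at that level, the share lower among all named genes, or both. A gene with a dim value was compared with that value raised to the 95th percentile of the negative controls. Named genes beyond the 10 were up to 6 per list by mean difference from the control, plus a fixed set and Socs1. Neighbours were taken by position, and genes of like pattern by distance. The members and lists were chosen with earlier results of these data known. The step that takes log2 differences was tested on simulated data, with less noise than the spread between these arrays. The code that made the counts above was not run in that test. Python 3.11.15, numpy 2.4.6, pandas 2.3.3 and matplotlib 3.10.9 were used.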

Additional observations from a re-analysis of the deposited data

How the results depend on the processing

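Alternatives were quantile normalization, centring each array on its median, raising dim values to background, the mean of probe sets, a pseudocount of 16, a filter at the median level, and, chosen after the data were seen, centring on genes of mean intensity 500 or more. Over these 7 alternatives the median log2 difference of the 9 genes ranged from -0.16 to -0.12 at 0.5 µg/ml, from -0.38 to -0.36 at 0.75 µg/ml and from -0.18 to -0.16 between the doses. Raising dim values, the mean of probe sets and the level filter could not move any of these values. Each of the 9 genes had 1 probe set and lay above background and above the filter level, so only the other alternatives were informative here. The count at least 1.5-fold lower at 0.75 µg/ml was 1 under each, and the count at least 2-fold lower was 0. Under quantile normalization 8 of 9 genes were lower at both doses, since B2m, which ranks first on every array, is then at 0.00 by construction. None of these alternatives replaces a replicate, which none of the 3 conditions had. No paired analysis was possible because each group held 1 array.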
